A study of Mus musculus with 12 samples.

Results

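The transcriptome of the liver of fed wild-type mice was described across all genes of a deposited table of expression values, with no comparison of genotypes. The members were the 6 libraries labelled wild type (WT), out of 12 libraries in the study, and were chosen by that label alone. The study compared these mice with mice lacking Gcg, the gene of the glucagon precursor, and asked how glucagon affects the zonation of the liver, the division of labour between periportal hepatocytes, which receive blood first, and pericentral hepatocytes, which it reaches last. Each library held polyadenylated RNA of whole frozen liver and was made with a strand-specific kit. All 6 came from fed animals of genotype WT, and the labels gave no allele, agent, strain, age, sex, batch or date. Nothing in the labels ties each library to an animal of its own, so each standard deviation (SD) below measures the spread between these 6 libraries, which may be technical. Libraries are called WT 1 to WT 6 by the number in their labels.

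The liver is built mostly of hepatocytes, which make and secrete the greater part of the proteins of blood plasma, hold the enzymes of nitrogen, carbohydrate and lipid metabolism, and detoxify foreign compounds. Many of these functions are set by the feeding state, by hormones and by the time of day. The remaining cells include the endothelium of the sinusoids, resident macrophages called Kupffer cells, stellate cells and the epithelium of the bile ducts, and blood cells pass through with the blood.

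Values were in RPKM (reads per kilobase of gene, scaled to the reads of the library), so levels can be compared between genes per length. The table held 24475 genes, of which 7046 were listed at 0 in all 6 WT libraries and 13716 had a value above 0 in all 6. A mean of at least 1 RPKM was reached by 10163 genes, of at least 10 RPKM by 3907, of at least 100 RPKM by 683, of at least 1000 RPKM by 78 and of at least 5000 RPKM by 22. The depth, estimated from the smallest step between low values, was 11600000 to 15000000 reads per library. Correlations of log2 values across genes between pairs of libraries were 0.970 to 0.989, as a description of these libraries, and the lowest mean correlation with the others belonged to WT 6 (0.975). None of the pairs held identical values. WT 6 stood apart in a group of hormone- and stress-responsive genes described below, and the main values that rest on it are given with and without it.

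The tissue label was checked against hepatocyte markers. Alb, the gene of serum albumin (chromosome 5, 90460870 to 90476602, GRCm38), was the most abundant gene of the table. Its lowest value was 23741 RPKM in WT 5, its median 25927.4 and its highest 31955.6 in WT 4, with a mean of 26714.5 ± 2915 RPKM (SD, n = 6). Apoe, which encodes apolipoprotein E (chromosome 7, 19696244 to 19701310), ranked 6 with 11266 ± 1004 RPKM. Cyp2e1, a pericentral cytochrome P450 (chromosome 7, 140763819 to 140774990), ranked 32 with 3339 ± 396 RPKM, and Ass1, the periportal urea cycle enzyme argininosuccinate synthase (chromosome 2, 31470270 to 31520670), ranked 48 with 1903 ± 198 RPKM. The spread of these 4 genes, as the SD of log2(RPKM + 0.5), was 0.13 to 0.18. Of the 50-base stretches of Ass1 transcripts, 38.6% also occurred in another gene of the table, so its value could include reads of copies.

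Plasma proteins and mitochondrially encoded genes filled the top of the ranking. Among the 20 most abundant genes, 8 were mitochondrial, 3 encoded plasma carriers (Alb, Ttr and Trf), 3 apolipoproteins (Apoe, Apoa2 and Apoa1), 3 major urinary proteins (Mup3, Mup7 and Mup20) and 2 plasma protease inhibitors (Serpina3k and Serpina1e). The remaining gene was Fabp1, the liver fatty acid binding protein, with 5817 ± 1158 RPKM. COX1 (18138 ± 1353 RPKM), a subunit of cytochrome oxidase, and ATP6 (17769 ± 2722 RPKM), a subunit of ATP synthase, followed Alb. The mean of Alb was 4.59 times that of the gene ranked 20. Ranking by the median in place of the mean gave the same 20 genes.

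**Figure D1:**
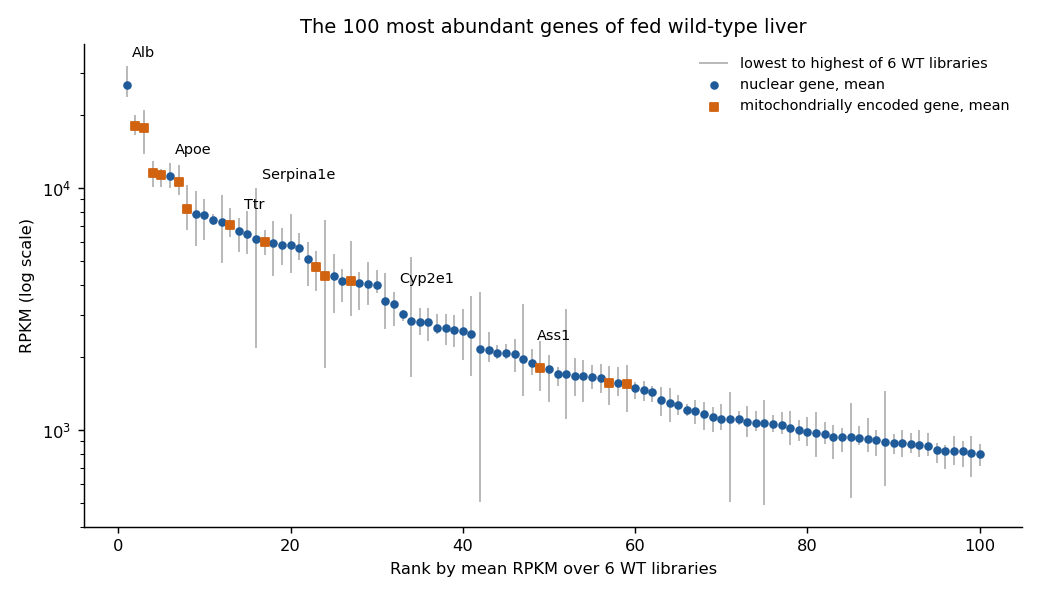
RPKM (vertical axis, log scale) of the 100 most abundant genes by rank (horizontal axis), with points for the mean over 6 WT libraries and grey lines from the lowest to the highest library. Alb leads at 26714.5 RPKM, 14 of the 100 genes are mitochondrially encoded (squares), and a few genes such as Serpina1e have long lines.

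A small number of genes held most of the signal. The 10 most abundant genes took 20.9% to 23.4% of the summed RPKM of a library, and the 100 most abundant took 56.9% to 58.2%. Between 54 and 60 genes were enough to reach 50% of the sum, and 1760 to 1950 genes reached 90%. The gene ranked 100, Akr1c6, an aldo-keto reductase, had a mean of 800.9 RPKM. The abundant nuclear genes were short: the median exon length was 1679 bases for the 83 nuclear genes of the first 100 that had a length, against 3161 bases for all genes with a mean of at least 1 RPKM. Since RPKM divides by length, a share of summed RPKM is closer to a share of molecules than to a share of reads.

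By gene class, the 37 mitochondrially encoded genes held 18.2 ± 2.46% of the summed RPKM, from 15.8% in WT 4 to 21.3% in WT 5. Multiplying each value by the gene's exon length, which approximates the share of reads, brought this class to 9.24%. After COX1 and ATP6 came COX2 (11577.5 ± 994 RPKM), COX3 (11299 ± 801 RPKM), CYTB (10554 ± 1186 RPKM), ND4 (8192 ± 1618 RPKM), ND2 (7030 ± 957 RPKM) and ND1 (5972 ± 510 RPKM), all subunits of the respiratory chain. ATP8, which overlaps ATP6 on the mitochondrial genome, varied more than these subunit genes (SD of log2 values 0.80), with 1805 RPKM in WT 4, a median of 3235 and 7403 RPKM in WT 2. The nuclear-encoded subunits of the same complexes, 81 genes led by Atp5b, Ndufa4 and Uqcrq, together held 1.98 ± 0.148%.

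Genes of 7 classes of secreted plasma proteins, 153 genes in all, held 30.1 ± 2.45% of the sum, from 27.3% in WT 2 to 33.1% in WT 1. Plasma carriers held 7.86 ± 0.633%, with Alb, Ttr (thyroid hormone and retinol transport, 6631 ± 765 RPKM), Trf (the iron carrier transferrin, 5841 ± 751 RPKM) and Gc (the vitamin D binding protein) in front. Protease inhibitors held 6.75 ± 0.967%, apolipoproteins 5.95 ± 0.573%, and the major urinary proteins, pheromone carriers that mice excrete in urine, 4.75 ± 0.815%. Coagulation and fibrinolysis genes held 2.50 ± 0.194%, led by the fibrinogen chains Fga (2655 ± 260 RPKM), Fgb (2604 ± 308 RPKM) and Fgg (2064 ± 257 RPKM). Complement genes held 0.993 ± 0.0643%, of which C3 (1652 ± 145 RPKM) was the most abundant. Acute phase proteins, which the liver makes in inflammation, held 1.31 ± 0.380% and were the most uneven of the 7 classes, from 0.978% in WT 2 to 2.05% in WT 1.

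**Figure D2:**
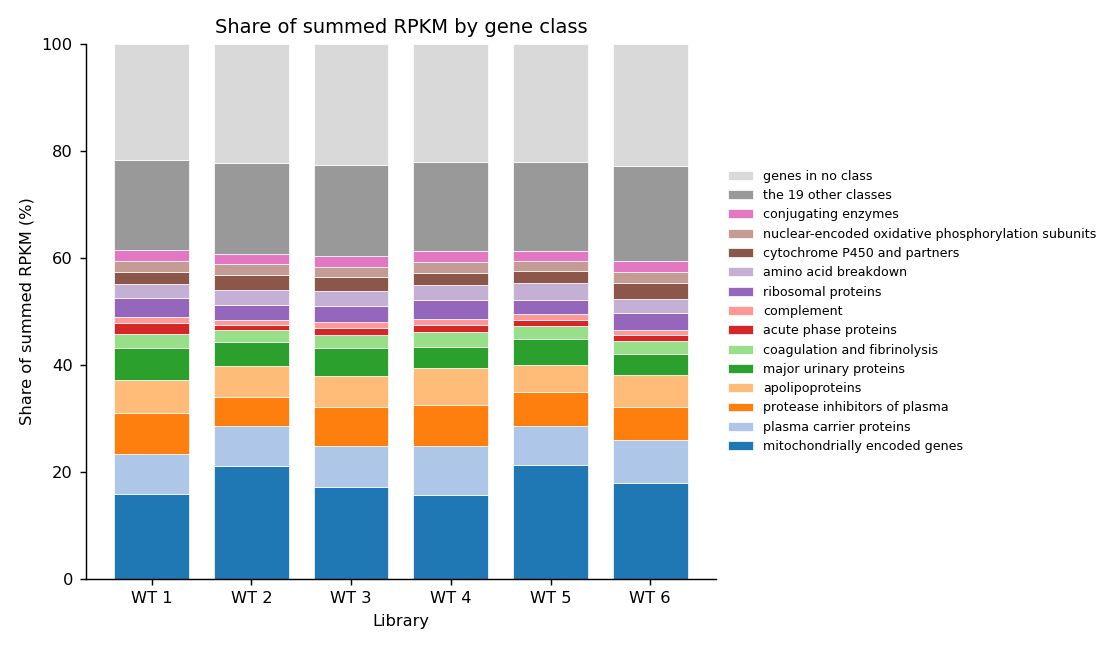
Share of summed RPKM (vertical axis, percent) in each of the 6 WT libraries (bars), divided into 13 named gene classes, the 19 other classes together and the genes in no class. Mitochondrially encoded genes take 15.8% to 21.3% and the 7 plasma protein classes 27.3% to 33.1% of each bar.

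Intracellular functions took smaller shares, spread over more genes. Ribosomal proteins held 3.16 ± 0.363% over 87 genes, none of which reached the level of the leading plasma proteins, with Rplp1 (521 ± 87.3 RPKM) and Rps2 (506 ± 41.2 RPKM) among the highest. Amino acid breakdown held 2.81 ± 0.249% over 74 genes, led by Bhmt, betaine-homocysteine methyltransferase (2508 ± 623 RPKM), Tat, tyrosine aminotransferase (1072 ± 299 RPKM), and Gnmt, glycine N-methyltransferase. Cytochrome P450 genes and their partners held 2.54 ± 0.317%, conjugating enzymes 1.97 ± 0.111% with Mgst1, a microsomal glutathione transferase, in front (2657 ± 214 RPKM), and metal binding and antioxidant proteins 2.04 ± 0.135% with the ferritin chain Ftl1 in front (2810 ± 331 RPKM). Lipid binding and lipoprotein handling held 1.62 ± 0.208%, most of it Fabp1. Carbohydrate metabolism held 1.34 ± 0.0693%, with Pck1, which encodes the first committed enzyme of gluconeogenesis (1113 ± 321 RPKM), and Gapdh, of glycolysis (981 ± 96.1 RPKM), among the leading genes. The 8 urea cycle genes held 0.765 ± 0.0648%, from 0.680% in WT 6 to 0.864% in WT 5. Fatty acid oxidation and ketogenesis held 0.881 ± 0.105%, highest in WT 6, and fatty acid and triglyceride synthesis 0.541 ± 0.0586%, highest in WT 2. The 18572 named genes in no class together held 22.3 ± 0.391%.

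Some of the abundance did not come from protein-coding messages. Rn45s, the ribosomal RNA precursor, had 4318 ± 816 RPKM, and Mir6236, a gene annotated as a micro RNA, had 4075 ± 497 RPKM. Together the 1312 ribosomal RNA, micro RNA and small nucleolar RNA genes held 1.43 ± 0.231%, with the lowest share in WT 1 (1.03%) and the highest in WT 6 (1.66%). Lars2, a mitochondrial leucyl-tRNA synthetase and one of the most abundant genes in no class, had 1675 ± 229 RPKM, and it too was lowest in WT 1 (1311 RPKM) and highest in WT 6 (1959 RPKM). The part of ribosomal RNA in the value of Lars2 was not tested. Unnamed gene models, 3380 in number, held 1.54 ± 0.0856%.

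The sum was unevenly placed in the genome. The mitochondrial genome led, followed by chromosome 5 (8.17% of the summed RPKM, with Alb and Gc), chromosome 4 (7.98%, with the Mup cluster), chromosome 7 (7.71%, with Apoe and Apoc1), chromosome 12 (6.34%, with the Serpina cluster) and chromosome 9 (6.20%, with Apoa1 and Trf). The X chromosome held 1.15% over 1063 genes, and none of the 100 most abundant genes was placed on it.

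The promoters of the most abundant genes were read from RefSeq sequences (GRCm38.p6), which gave a window of 250 bases before a transcript start for 8140 of the 10163 genes with a mean of at least 1 RPKM (80.1%). Of the 100 most abundant genes 64 had a window, so the 100 most abundant genes with a window reached down to a mean of 461 RPKM. The windows were searched on both strands for short motifs, each searched on its own, so that matches of different motifs may overlap. The TATA box, TATAAA, occurred in 22% of the windows of the 100 most abundant genes with a window, in 9% of those of the next 900, in 6.60% of the windows of all genes with a mean of at least 1 RPKM, and in 12.1% of all 18148 windows. In the same sets, matches were found for the C/EBP site TTGCNNAA in 19%, 11.3%, 7.94% and 9.02%. The GC box GGGCGG went the other way, with 27%, 50.9%, 59.5% and 42.8%. CCAAT was found in similar shares of each set (45%, 41.8%, 36.95% and 36.3%). The 10008 windows of genes with a mean below 1 RPKM held the TATA box in 16.6%, the C/EBP site in 9.90%, the GC box in 29.3% and CCAAT in 35.7%. More TATA boxes and fewer GC boxes than in all genes with a mean of at least 1 RPKM were thus not particular to the most abundant genes. A match is a run of letters, and binding was not measured.

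The windows of Alb, the most abundant gene, and of Serpina1c and Serpina1e, close copies with unlike spread between libraries, are shown 5′ to 3′ with CCAAT, on either strand, in capitals. Positions are counted backwards from the RefSeq start. The windows lie at chr5:90460620-90460869, plus strand for Alb, chr12:103904951-103905200, minus strand for Serpina1c and chr12:103956898-103957147, minus strand for Serpina1e.
Alb: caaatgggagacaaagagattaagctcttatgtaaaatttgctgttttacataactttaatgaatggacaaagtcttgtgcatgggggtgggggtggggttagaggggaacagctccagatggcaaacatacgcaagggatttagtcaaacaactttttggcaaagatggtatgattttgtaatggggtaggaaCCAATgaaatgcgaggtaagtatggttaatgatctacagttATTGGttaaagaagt
Serpina1c: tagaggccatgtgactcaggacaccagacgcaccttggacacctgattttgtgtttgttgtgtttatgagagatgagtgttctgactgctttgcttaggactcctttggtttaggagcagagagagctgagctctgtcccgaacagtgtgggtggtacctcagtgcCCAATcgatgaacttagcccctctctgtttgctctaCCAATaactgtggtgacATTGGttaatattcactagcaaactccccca
Serpina1e: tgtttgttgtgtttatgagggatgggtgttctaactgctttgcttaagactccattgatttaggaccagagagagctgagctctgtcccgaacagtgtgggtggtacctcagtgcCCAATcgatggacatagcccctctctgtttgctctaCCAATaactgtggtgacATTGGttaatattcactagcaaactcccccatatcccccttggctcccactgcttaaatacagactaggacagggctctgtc
CCAAT or its reverse complement began at positions -56 and -15 in Alb, -84, -48 and -31 in Serpina1c and -135, -99 and -82 in Serpina1e. Moved against each other by 51 bases, the Serpina1c and Serpina1e windows shared 190 of 199 bases (95.5%), with these 3 matches in the same places of the alignment.

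Serpina1 genes encode forms of alpha-1-antitrypsin, the main inhibitor of neutrophil elastase in plasma. Serpina1e (chromosome 12, 103946931 to 103956897) had 10044 RPKM in WT 1, 2192 in WT 2, 8819 in WT 3, 8337 in WT 4, 4141 in WT 5 and 3460 in WT 6. The highest values were thus those of WT 1, WT 3 and WT 4, and the other libraries ran from 2192 to 4141 RPKM. Serpina1c (chromosome 12, 103894926 to 103904950) lay between 5046 and 6499 RPKM in all 6 libraries (5652 ± 582 RPKM). The SD of log2 values was 0.89 for Serpina1e, 0.15 for Serpina1c and 0.26 for the summed RPKM of Serpina1a to Serpina1e. Of the 50-base stretches of these 5 genes, 28.2% to 73.3% occurred in another gene of the table, so the division of reads among them is uncertain.

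Most genes varied little between the 6 libraries. Over the 10163 genes with a mean of at least 1 RPKM, the SD of log2(RPKM + 0.5) had a median of 0.17, with 5% of genes below 0.07, 25% below 0.12, 25% above 0.24 and 5% above 0.47. An SD of at least 0.5 was found for 458 genes (4.51%) and of at least 1 for 107 genes (1.05%). Part of the spread is set by counting: the SD that read counts alone would give had a median of 0.08, and 5351 of 9784 genes with a known length (54.7%) had a spread over 2 times that value. The median spread was 0.22 (0.14 from counting alone) between 1 and 2 RPKM, 0.15 (0.05) between 10 and 100 RPKM and 0.15 (0.02) at 100 RPKM or more. At higher abundance the counting part thus shrank while the spread itself stayed near 0.15.

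**Figure D3:**
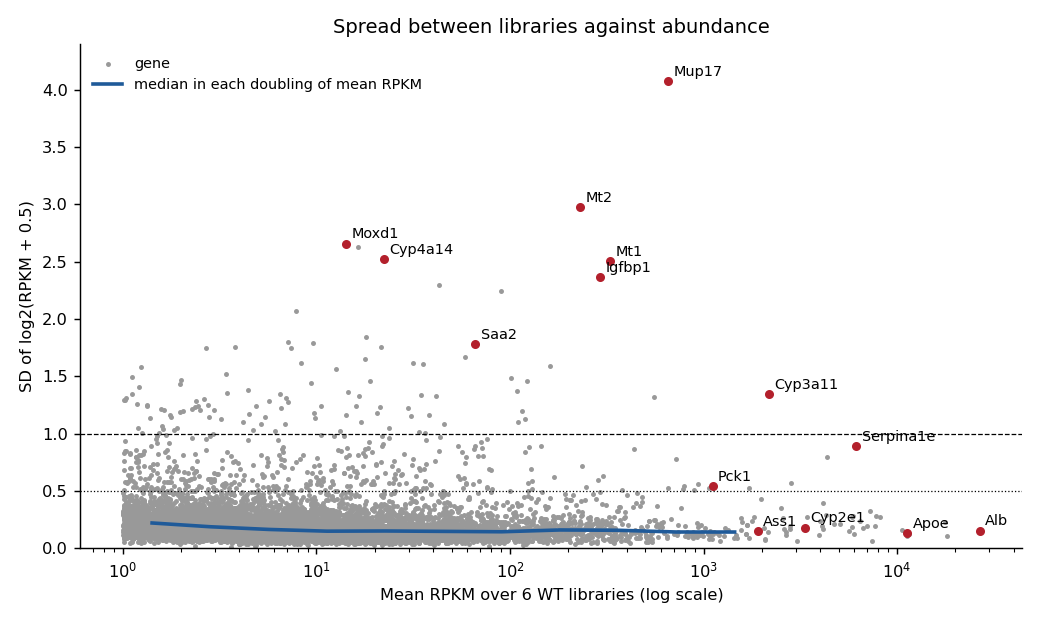
SD of log2(RPKM + 0.5) over 6 WT libraries (vertical axis) against mean RPKM (horizontal axis, log scale) for 10163 genes (points), with the median in each doubling of the mean (line) and dashed and dotted lines at SD 1 and 0.5. Alb, Apoe, Cyp2e1 and Ass1 lie near the median, while Mup17, Mt1, Mt2, Igfbp1 and Cyp3a11 are abundant genes with a large spread.

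Among genes with a mean of at least 10 RPKM, Rab7, a small GTPase of late endosomes, had the lowest spread. It lay between 76.6 and 79.7 RPKM (77.9 ± 1.16 RPKM, SD of log2 values 0.02). Next were Mbd2, which binds methylated DNA (19.9 ± 0.334 RPKM), Actr1b, a subunit of dynactin (21.7 ± 0.390 RPKM), Creb3l3, a hepatic transcription factor (116 ± 2.38 RPKM), and Nit1 (40.3 ± 0.841 RPKM). Ap2a2, Echs1, Pcna and Letm1 followed. Echs1 encodes a mitochondrial enzyme of fatty acid oxidation and had 121 ± 2.71 RPKM.

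Genes often used as references for liver RNA varied slightly less, as a group, than all genes. Of 20 such genes in the table, all reached a mean of 1 RPKM, and their median SD was 0.14, against 0.17 for all genes. They were abundant (median of their means 226 RPKM), and genes of at least 100 RPKM had a median SD of 0.15. None had an SD of at least 0.5, which for a list of this length is near the 4.51% of all genes. Eef1a1, a translation elongation factor, had 2089 ± 103 RPKM, B2m, the light chain of class I MHC, 1112 ± 60.7 RPKM, and Gapdh 981 ± 96.1 RPKM. Tfrc, the transferrin receptor, had the largest spread of the list (5.32 to 11.6 RPKM, SD of log2 values 0.36). Among abundant secreted proteins, Mup3 (7398 ± 320 RPKM, SD of log2 values 0.06) had a spread below the median of that list.

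Receptors of the hepatocyte had a spread close to that of all genes, and transcription factors a somewhat wider one. Of 34 genes for hormone and growth factor receptors, 27 reached a mean of 1 RPKM, with a median SD of 0.17. Of these, 1 had an SD of at least 0.5 (Il1r1), against 4.51% of all genes. The most abundant were Asgr1, a receptor that clears glycoproteins from blood (265 ± 17.7 RPKM), the growth hormone receptor Ghr (231 ± 20.9 RPKM) and Egfr, the epidermal growth factor receptor (160 ± 50.1 RPKM). Gcgr, the glucagon receptor, had 87.9 RPKM in its lowest library, a median of 91.6 and 96.5 in its highest (92.1 ± 3.16 RPKM), and the insulin receptor Insr had 16.8 ± 1.83 RPKM. Gcgr had the lowest spread of the list, with an SD of log2 values of 0.05. Gcg itself was listed at 0 in all 6 livers. Of 39 hepatic transcription factors and nuclear receptors, 37 reached 1 RPKM, led by Hnf4a (155 ± 8.94 RPKM), Atf5 (124 ± 7.13 RPKM) and Creb3l3. Their median SD was 0.22, or 0.21 without WT 6. An SD of at least 0.5 was found for 4 of the 37 (Cebpb, Onecut1, Foxa1 and Foxa2), against 4.51% of all genes. WT 6 held the lowest value of Cebpb and the highest values of Onecut1, Foxa1 and Foxa2, so this count leans on that library. Onecut1 was the only member with an SD of at least 1, with 1.72 RPKM in WT 2, a median of 5.96 and 18.3 in WT 6.

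Genes of the liver zones were all measured. All 27 periportal genes listed reached 1 RPKM, and their median SD was 0.15. Beside Alb, Trf and Ass1, the list held Cps1, the first enzyme of the urea cycle (1085 ± 115 RPKM), Arg1, arginase (819 ± 77.1 RPKM), and Gls2, liver glutaminase (173 ± 10.7 RPKM). All 30 pericentral genes reached 1 RPKM, with a median SD of 0.22. Glul, glutamine synthetase of the hepatocytes next to the central vein, had 347 ± 28.1 RPKM, Oat, ornithine aminotransferase, 461 ± 41.1 RPKM, and Cyp1a2 389 ± 77.2 RPKM. Of the Wnt pathway members of that list, Lgr5 (1.96 ± 0.611 RPKM), Axin2 (1.27 ± 0.427 RPKM) and Rnf43 (2.74 ± 1.30 RPKM) were low in whole liver. Znrf3 was likewise low, from 1.46 to 2.21 RPKM, but Notum was higher, with 10.7 ± 1.01 RPKM. Tbx3, also on the list, had 4.03 ± 1.06 RPKM. The mean log2 value was lowest in WT 6 for the periportal list (7.37, against 7.75 in WT 4) and highest in WT 6 for the pericentral list (6.16, against 5.89 in WT 1). WT 6 was lowest for 9 of the 27 periportal genes, against 10.1% of all genes. Among the 9 were Pck1 and G6pc, which are also on the list of cyclic AMP and fasting responsive genes below, and Mfsd2a, Sds and Slc7a2. The pericentral list held Cyp3a11, which ran from 504 RPKM in WT 4 to 3718 in WT 6. The part of these members in the list means was not tested.

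Markers of other cell types were mostly far below the hepatocyte genes. The 20 Kupffer cell and macrophage markers all reached 1 RPKM, led by Clec4f (30.5 ± 8.37 RPKM), Slc40a1, the iron exporter ferroportin (26.9 ± 5.98 RPKM), and Cd5l (26.8 ± 4.03 RPKM). Of 20 endothelial markers, 19 reached 1 RPKM, led by Clec4g (26.5 ± 4.08 RPKM), Fcgr2b (20.1 ± 2.93 RPKM) and Eng (17.8 ± 2.15 RPKM), and of 19 stellate cell and fibroblast markers 17 did, led by Dcn, the matrix protein decorin (56.3 ± 5.77 RPKM). The median SD was 0.19 for the endothelial, 0.20 for the stellate and 0.27 for the Kupffer list, in which Marco (0.65) and Folr2 (0.62) varied most. The Kupffer list was lowest in WT 2 (mean log2 value 2.90) and highest in WT 4 (3.56). In whole tissue, fewer cells of a type and less RNA per cell cannot be told apart. Of 16 T and NK cell markers in the table, only Zap70 reached 1 RPKM (5.47 ± 0.545 RPKM), and of 8 B and plasma cell markers none did. Pancreas acinar markers were low except Cela1 (21.3 ± 2.72 RPKM), the only one of 16 to reach 1 RPKM, and of 11 adipocyte markers 3 did: Car3, which is abundant in the liver of male mice (1789 ± 270 RPKM), Fabp4 (9.23 ± 2.05 RPKM) and Lipe (3.97 ± 0.644 RPKM).

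The labels gave no sex. Xist, transcribed from the inactive X chromosome, was at most 0.0146 RPKM in each of the 6 libraries, and Ddx3y, on the Y chromosome, ranged from 11.3 to 17.8 RPKM. All 19 genes of a list of male-biased liver genes reached 1 RPKM, among them Mup20 (5928 ± 1104 RPKM) and Cyp2d9 (878 ± 61.7 RPKM), and 5 of 20 female-biased genes did. The highest mean among these was that of Cyp3a44 (1.74 ± 1.37 RPKM). Cyp3a44 shared 18.2% of its 50-base stretches with other genes of the table, and Cyp3a41b, another of the 5, shared 93.5%. Their values could thus include reads of copies.

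Of the 107 genes with an SD of at least 1, 51 were named genes in no class and 5 unnamed gene models. The others included 14 ribosomal, micro RNA and small nucleolar RNA genes, 9 cytochrome P450 genes and partners, 7 mitochondrial transfer RNA genes, 4 protease inhibitors, 3 major urinary proteins and 3 acute phase genes. WT 6 held the lowest value for 42 of the 107 genes, while over all 10163 genes it held the lowest value for 1024 (10.1%). Without WT 6, 76 genes had an SD of at least 1, and 68 of these were among the 107. Among the 96 of these genes with known transcripts, 33 (34.4%) had at least 10% of their 50-base stretches in another gene of the table, against 4.24% of genes with a smaller spread.

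**Figure D4:**
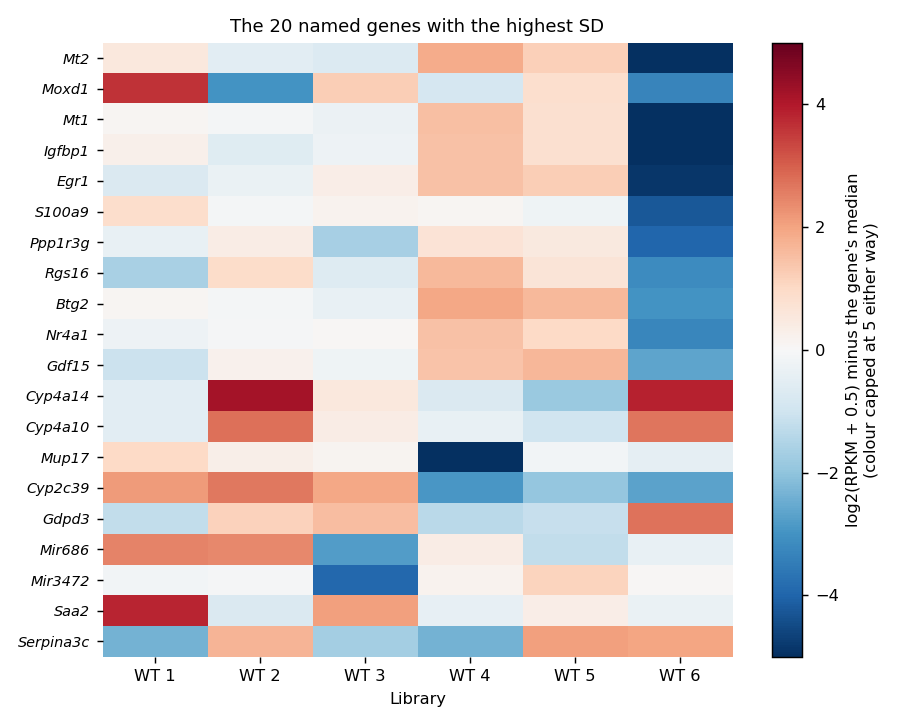
Heat map of the 20 named genes with the highest SD (rows) in the 6 WT libraries (columns), coloured by log2(RPKM + 0.5) minus the gene's median over the libraries, capped at 5 in each direction. The upper rows, from Mt2 to Gdf15, are lowest in WT 6, Cyp4a14 and Cyp4a10 are high in WT 2 and WT 6, and Mup17 is low in WT 4 alone.

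Metallothioneins, cysteine-rich proteins that bind zinc and copper and respond to metals and glucocorticoids, ranked 6 (Mt1) and 2 (Mt2) of all genes by spread. Mt1 (chromosome 8, 94178883 to 94180327) had 287 RPKM in WT 1, 248 in WT 2, 217 in WT 3, 748 in WT 4, 468 in WT 5 and 5.34 in WT 6. Its neighbour Mt2 (chromosome 8, 94172618 to 94173567) had 229, 109, 98.1, 579, 366 and 1.38 RPKM in the same order. Both were highest in WT 4, next in WT 5, and far below the other libraries in WT 6. The SD of log2 values was 2.50 for Mt1 and 2.98 for Mt2, and 0.74 and 1.10 without WT 6. The Mt2 window (chr8:94172368-94172617, plus strand) is shown because the gene combined a mean above 100 RPKM and no shared stretches with the largest spread after Mup17. Capitals mark the core of the metal response element (TGCACNC or TGCGCNC, on either strand).
Mt2: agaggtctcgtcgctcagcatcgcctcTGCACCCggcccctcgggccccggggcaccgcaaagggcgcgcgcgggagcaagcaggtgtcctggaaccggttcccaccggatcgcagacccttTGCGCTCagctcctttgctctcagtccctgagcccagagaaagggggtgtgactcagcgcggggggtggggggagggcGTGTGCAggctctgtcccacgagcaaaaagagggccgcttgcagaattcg
The window held 3 such cores, beginning at positions -223, -128 and -50. At least 1 was present in 30.05% of the windows of genes with a mean of at least 1 RPKM and in 24.3% of all windows.

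Igfbp1, a secreted binding protein for insulin-like growth factors that insulin represses (chromosome 11, 7197787 to 7202546), had 289 RPKM in WT 1, 159 in WT 2, 203 in WT 3, 675 in WT 4, 417 in WT 5 and 6.22 in WT 6. The order of the libraries WT 4, WT 5 and WT 1 at the top and WT 6 at the bottom was that of Mt1. The SD of its log2 values was 2.37, and 0.83 without WT 6.

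Immediate early genes, which are transcribed within minutes of a stimulus, were the next group. Of 28 such genes listed, 22 reached 1 RPKM, 11 of these had an SD of at least 1, and the median SD was 0.97. WT 6 held the lowest value for 18 of the 22. Over all genes, 1.05% had an SD of at least 1 and 10.1% were lowest in WT 6. Egr1, a zinc finger transcription factor, had 20.03 RPKM in WT 1, 25.9 in WT 2, 41.9 in WT 3, 91.3 in WT 4, 77.0 in WT 5 and 0.665 in WT 6. Nr4a1, an orphan nuclear receptor, had 0.997 RPKM in WT 6 against 11.2 to 38.9 RPKM in the other libraries, and Btg2, an antiproliferative gene, had 1.21 RPKM in WT 6 and 10.1 to 51.1 RPKM elsewhere. WT 4 held the highest value of each of these 3 genes. Without WT 6, the median SD of the list was 0.70, and 2 genes had an SD of at least 1.

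Genes that respond to glucocorticoids and to cyclic AMP or fasting varied in the same libraries. Of 16 glucocorticoid responsive genes with a mean of at least 1 RPKM, 9 had an SD of at least 1, the median SD was 1.12, and WT 6 was lowest for 15 (the exception was Lcn2). Of 23 genes responsive to cyclic AMP and fasting, 7 had an SD of at least 1, the median SD was 0.76, and WT 6 was lowest for 20. The shares over all genes were 1.05% with such an SD and 10.1% lowest in WT 6. The lists share members with each other and with the immediate early list (Per1, Ddit4, Dusp1 and Nr4a1 among them), so their counts are not separate. Without WT 6, the median SD was 0.41 for the glucocorticoid list, with 2 genes at an SD of at least 1, and 0.45 for the cyclic AMP and fasting list, with 0 such genes. Pck1 had 504 RPKM in WT 6 and 1083 to 1444 RPKM in the other libraries, Tat had 493 RPKM in WT 6 and a median of 1151, and G6pc, the last enzyme of glucose release, had 132 RPKM in WT 6, a median of 402 and 681 RPKM in WT 4. Cebpb, a transcription factor of the acute and fasting responses, had 20.5 RPKM in WT 6, a median of 76.4 and 88.8 in WT 5.

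Genes of the fed state made up another list. Of 20 insulin and feeding responsive genes with a mean of at least 1 RPKM, 3 were lowest in WT 6, near the 10.1% of all genes. Their median SD was 0.30. Srebf1, a transcription factor of lipid synthesis, had 42.9 ± 4.28 RPKM, and Fasn, fatty acid synthase, 50.2 ± 7.30 RPKM. Scd1, stearoyl-CoA desaturase, had 590 RPKM in WT 4, a median of 771 and 1449 in WT 2. The 3 members lowest in WT 6 were Ppp1r3b (44.8 RPKM, against a median of 69.9), Dusp4 (0.877 RPKM, against a median of 2.26) and Ppp1r3g. Ppp1r3g, a glycogen-targeting subunit of protein phosphatase, had the largest spread of the list, with 0.0369 RPKM in WT 6 against 2.18 to 12.96 RPKM elsewhere.

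**Figure D5:**
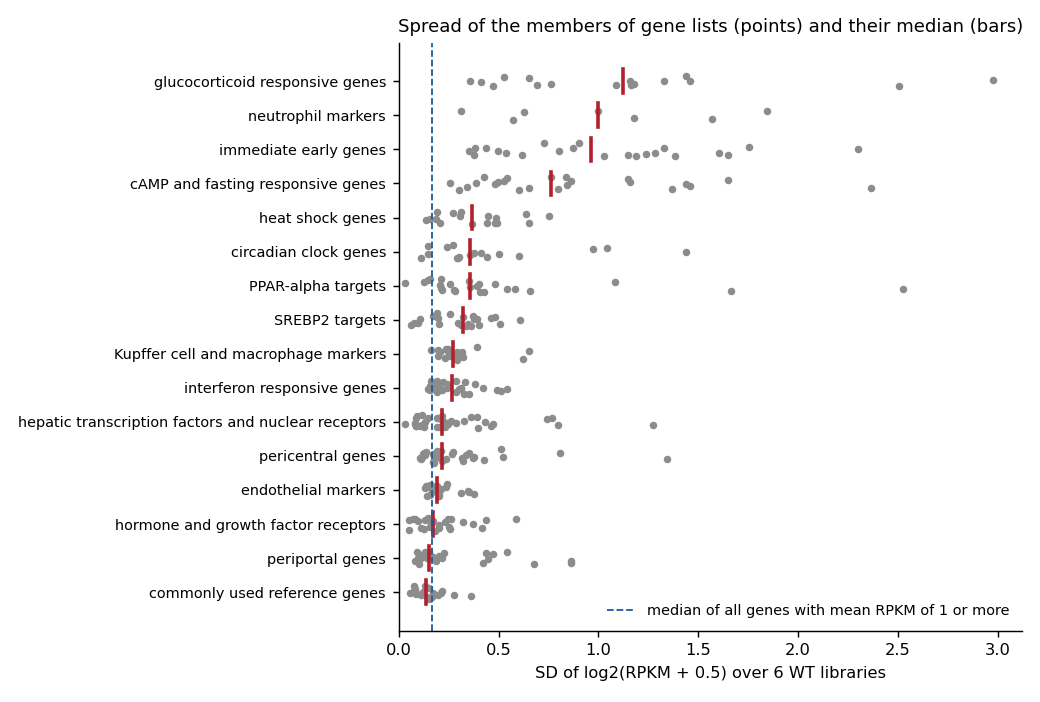
SD of log2(RPKM + 0.5) over 6 WT libraries (horizontal axis) for the members with a mean of at least 1 RPKM (points) of 16 gene lists (rows), with the median of each list (bars) and of all genes (dashed line, 0.17). Glucocorticoid responsive, neutrophil, immediate early and cyclic AMP and fasting responsive genes lie farthest to the right, and reference genes (0.14) and periportal genes (0.15) to the left of the line.

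Neutrophil genes were also lowest in WT 6. Of 15 listed, 7 reached 1 RPKM, 6 of these were lowest in WT 6, and the median SD was 1, or 0.40 without that library. S100a9, a calcium-binding protein of neutrophils, had 34.3 RPKM in WT 1, 17.4 in WT 2, 20.9 in WT 3, 19.5 in WT 4, 15.7 in WT 5 and 0.489 in WT 6, and S100a8, its partner, had 0.651 RPKM in WT 6 and a median of 12.7. Mpo, the myeloperoxidase of neutrophil granules, was listed at 0 in all 6 libraries, and Camp and Elane were listed at 0 in most. Retnlg had 0.280 RPKM in WT 6 and a median of 2.97. The mean log2 value of the 7 genes ran from 0.26 in WT 6 to 2.97 in WT 1, with 1.87 or more in WT 2 to WT 5. The estimated depth of WT 6 (11700000 reads) and the mean log2 value of its reference genes (between 6.84 and 6.97 in every library) lay within the range of the others. None of the 20 Kupffer genes was lowest in WT 6, against 10.1% of all genes. A list of 20 genes is too short to tell these shares apart. In several other features WT 6 was at an end of the range: besides the mean correlation given above, it had the most genes at 1 RPKM or more (10266), the lowest share of major urinary proteins (3.87%) and of urea cycle genes, and the highest share of lipid binding genes and of ribosomal, micro and small nucleolar RNA genes. The part of the neutrophil genes, or of any other property of WT 6, in the values of the other lists was not tested.

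Clock genes varied with a median SD of 0.36 over the 17 of 20 that reached 1 RPKM. Per1, a repressor of the clock that glucocorticoids and cyclic AMP also induce, had 0.586 RPKM in WT 6, a median of 8.34 and 17.7 in WT 4, and Bhlhe40 had 12.9 RPKM in WT 6, a median of 32.5 and 85.0 in WT 5. The core activators Arntl (9.12 ± 0.943 RPKM) and Clock (8.40 ± 0.871 RPKM) had SDs of 0.15 and 0.14. Nr1d1, whose product represses Arntl, had 10.8 RPKM in WT 1, a median of 18.3 and 25.9 in WT 6.

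Acute phase genes were highest in WT 1. Saa2, a serum amyloid A gene, had 259 RPKM in WT 1, 10.7 in WT 2, 76.2 in WT 3, 13.5 in WT 4, 22.6 in WT 5 and 14.4 in WT 6, and Saa1 had 518, 35.2, 232, 54.5, 91.3 and 32.4 RPKM. WT 1 stood first and WT 3 second for both, and their sum had an SD of 1.64, so the spread was also present in the sum of the copies, which share 29.97% and 31.48% of their stretches. Lcn2, lipocalin 2, had 30.2 RPKM in WT 1, a median of 5.61 and 2.73 in WT 2. The abundant Hp (haptoglobin) had 3156 RPKM in WT 1 and 1119 to 1709 RPKM in the others, and Hpx (hemopexin) 3322 RPKM in WT 1 and 1381 to 1910 RPKM in the others. Heat shock genes were highest in the same library: of 17 heat shock genes, among them the mitochondrial chaperonins Hspd1 and Hspe1, with a median SD of 0.37, the mean log2 value was 5.29 in WT 1 and 4.33 in WT 4, and Hspa8 ran from 300 RPKM in WT 4 to 760 RPKM in WT 1. Interferon responsive genes had a median SD of 0.26 over 26 genes and no member with an SD of at least 1, against 1.05% of all genes.

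Among cytochrome P450 genes, Cyp3a11 and some less abundant members fell into separate low and high libraries, while the abundant Cyp2e1, Cyp2f2 and Cyp2c29 had SDs of 0.18, 0.11 and 0.22. Cyp3a11, the main hepatic drug-metabolising P450 of its family (chromosome 5, 145854607 to 145879854), had 2246 RPKM in WT 1, 3659 in WT 2, 2391 in WT 3, 504 in WT 4, 506 in WT 5 and 3718 in WT 6. WT 4 and WT 5 were thus the lowest libraries. Under a rule given below, chosen after the values were seen, 7 of 62 genes were low in WT 4 and WT 5 only, Cyp3a11 among them. Cyp2c39 had 25.2 to 41.8 RPKM in WT 1, WT 2 and WT 3 and 0.403 to 1.26 RPKM in WT 4, WT 5 and WT 6. The fatty acid hydroxylase Cyp4a14 (chromosome 4, 115486200 to 115496158) had 2.21 RPKM in WT 1, 68.8 in WT 2, 4.99 in WT 3, 1.84 in WT 4, 0.552 in WT 5 and 55.2 in WT 6. Its neighbour Cyp4a10 had 145 and 136 RPKM in WT 2 and WT 6 and 10.1 to 27.2 RPKM in the others, with 29.8% of its stretches shared.

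The Cyp4a genes are targets of PPAR-alpha, the nuclear receptor that fatty acids activate. Of 24 listed targets with a mean of at least 1 RPKM, 3 had an SD of at least 1 (Cyp4a14, Cyp4a10 and Vnn1), against 1.05% of all genes. The median SD of the list was 0.36. Without WT 6, 2 targets had such an SD and the median was 0.30. Cd36, a fatty acid transporter, had 14.8 to 16.5 RPKM in WT 2 and WT 6 and 5.08 to 7.60 RPKM in the others. Vnn1, pantetheinase, was highest in WT 6 (17.7 RPKM, against a median of 4.42). Cpt1a, which admits fatty acids to mitochondria, had 74.9 ± 7.73 RPKM and was lowest in WT 6. For genes of cholesterol synthesis under SREBP2 the libraries stood in another order. Over 23 genes the median SD was 0.32, the mean log2 value was lowest in WT 2 (5.36) and highest in WT 5 (6.04), and Sqle, squalene epoxidase, ran from 18.2 RPKM in WT 2 to 46.5 in WT 5.

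The largest spread of the table belonged to Mup17 (chromosome 4, 61591929 to 61595865), with 0.272 RPKM in WT 4 and 482 to 1326 RPKM in the other 5 libraries. Its SD of log2 values was 4.08, while the summed RPKM of the 20 genes Mup1 to Mup21 in the table had an SD of 0.25, from 23296 RPKM in WT 6 to 37732 in WT 1. Of the 50-base stretches of Mup17, 78.1% occurred in another gene. Mup9 and Mup10, with 79.1% and 72.8% shared, were likewise lowest in WT 4 (92.5 and 22.9 RPKM). The family total of WT 4, 24307 RPKM, was the second lowest. The way reads of shared sequence were divided among the copies is not given in the sources.

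In some other sets of copies, too, the sum varied less than the members. Hba-a1 and Hba-a2, the near-identical alpha globin genes, had SDs of 1.13 and 1.46, and their sum 0.42. Hba-a1 had 34.6 and 37.6 RPKM in WT 5 and WT 6, and Hba-a2 23.02 and 25.9 RPKM in WT 2 and WT 3, and both lay between 109.7 and 220.9 RPKM in every other library. Eno1, enolase 1, ran from 13.5 RPKM in WT 5 to 207 RPKM in WT 1 (SD 1.37), and its sum with the copy Eno1b had an SD of 0.20. The beta globin genes Hbb-b1, Hbb-b2, Hbb-bs and Hbb-bt went otherwise: their SDs were 0.33 to 0.36, and that of their sum was 0.34. For Saa1 and Saa2, with SDs of 1.59 and 1.78, the SD of the sum (1.64) also lay between those of the members. For metallothioneins, the sum of Mt1 and Mt2 had an SD of 2.70, and neither shared 50-base stretches with another gene.

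A rule chosen after the values were seen found 62 genes whose 6 values fell into a low and a high run with a wide gap (at least 0.6 on the log2 scale, at least 2 times any other gap between neighbouring values, with 2 to 4 libraries low and an SD of at least 0.35). Of the 56 with known transcripts, 15 (26.8%) had at least 10% of their 50-base stretches in another gene, against 4.54% of all genes with a mean of at least 1 RPKM, and 41 had less. Ndufa11, a subunit of respiratory complex I (chromosome 17), had 62.2, 55.5 and 59.8 RPKM in WT 1, WT 2 and WT 6 and 9.57 to 11.9 RPKM in WT 3, WT 4 and WT 5, and none of its stretches were shared. C1d, a nuclear RNA-binding factor, had 25.9 to 28.04 RPKM in WT 1 and WT 2 and 6.88 to 8.85 RPKM in the others. Btg1 had 39.9 to 44.8 RPKM in WT 2 and WT 3 and 9.12 to 13.9 RPKM in the others. Asic5, an ion channel gene, had 10.95 to 12.8 RPKM in WT 2, WT 3 and WT 5 and 1.83 to 1.91 RPKM in WT 1, WT 4 and WT 6. The high libraries were thus not the same from gene to gene.

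Some neighbouring serpin genes on chromosome 12 shared their high libraries, while others did not. Serpina3c (104146907 to 104153929), Serpina3h, Serpina3i and Serpina3m were all low in WT 1, WT 3 and WT 4 and high in WT 2, WT 5 and WT 6. Serpina3c had 8.15 to 13.3 RPKM in the low and 145 to 188 RPKM in the high libraries, with 4.25% of its stretches shared. The shared part was larger for Serpina3h (21.9%), Serpina3i (12.5%) and Serpina3m (19.1%), so their reads may not be told apart. Serpina3i had 1.27 to 1.44 RPKM and 5.26 to 8.30 RPKM, and Serpina3m 157 to 179 RPKM and 296 to 357 RPKM. Serpina1e, a short distance away on the same chromosome, instead had its highest values in WT 1, WT 3 and WT 4. Serpina3k, the most abundant gene of the cluster, lay between 5751 and 9776 RPKM and was highest in WT 1.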

How the data were processed

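Polyadenylated RNA of whole liver was sequenced from strand-specific libraries, per the labels' protocols. The values are RPKM per gene as deposited by the authors. CASAVA 1.8.2, FastQC and the build GRCm38 appear in the submitters' processing notes. The aligner, the counter, the annotation and the handling of reads that match several genes are, in the sources used here, not given. The 6 WT libraries were grouped by their labels. No test was run, since there was 1 group.

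Genes were ranked by mean RPKM, shares of summed RPKM were taken over 32 gene classes, and spread was the SD of log2(RPKM + 0.5) for genes with a mean of at least 1 RPKM, with 30 gene lists (611 of 618 entries found). Depth (11600000 to 15000000 reads) was estimated from the smallest step of low values times exon length, and gave 23.2 to 30.1 reads for a gene of 2 kb at 1 RPKM. Of the values above 0, 501 of 92400 lay below 1e-06 RPKM and were kept as deposited. Exon lengths and shared 50-base stretches came from the transcripts of the reference, and promoters, names and coordinates from RefSeq (24375 of 24475 genes matched). The spread calculation was tested on simulated data. Python 3.11.15, numpy 2.4.6, pandas 2.3.3, scipy 1.17.1 and matplotlib 3.10.9 were used.

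The members, classes, lists and alternatives were chosen with earlier results of these data known. The genes named were the 20 of highest mean, the 20 of highest spread (unnamed gene models left out), the 10 of lowest spread among genes with a mean of at least 10 RPKM, the leading members of classes and lists, and list members as examples. Other genes named as examples of low or high libraries were chosen after their values were seen. The symbols of the mitochondrial and noncoding RNA classes were also completed after the table was seen. A few genes and a promoter motif that these rules reached are not reported here.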

Additional observations from a re-analysis of the deposited data

Results flagged for a closer look

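Of 111 items examined (51 genes, 34 class shares and 26 list means), 13 had a library far from the other 5, by the gap to its neighbour relative to the whole range (Dixon's 95% critical value for 6 samples, on log2 values for genes). Chance flags about 1 in 20 groups, a rate that does not apply to genes chosen for a large spread: all 8 genes below were among the 20 of highest spread, and some are members of the lists below. Over all genes with a mean of at least 1 RPKM, the lone low library was WT 4 for 227 genes, WT 5 for 83, WT 6 for 80 and WT 1 for 69 of 493, and the lone high library was WT 6 for 71 of 228.

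WT 6 was the far library for 8 of these. Mt2 had 1.38 RPKM there against 98.1 to 579 RPKM elsewhere, Mt1 5.34 against 217 to 748, and Igfbp1 6.22 against 159 to 675. Egr1 had 0.665 RPKM against 20.03 to 91.3, Nr4a1 0.997 against 11.2 to 38.9, and S100a9 0.489 against 15.7 to 34.3. The mean log2 value of the cyclic AMP and fasting responsive genes was 3.08 in WT 6 against 4.50 to 5.19, and that of the glucocorticoid responsive genes 2.55 against 4.74 to 5.32.

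Mup17 had 0.272 RPKM in WT 4 against 482 to 1326 RPKM. Mir3472 was given as 8.41e-45 RPKM in WT 3, in effect 0, against 6.33 to 15.7 RPKM. The interferon responsive genes had a mean log2 value of 2.51 in WT 2 against 2.73 to 2.84, and the complement genes a share of 0.870% in WT 2 against 0.984% to 1.05%. The share of ubiquitin, proteasome and lysosome genes was 0.733% in WT 5 against 0.763% to 0.776%.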

How the results depend on the processing

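Of 352 values recomputed under other settings, 314 stayed within the spread or within 1.5 times the reported value, and 38 moved. Weighting RPKM by exon length, as an approximate share of reads, gave 9.24% for mitochondrially encoded genes, 4.23% for apolipoproteins, 2.48% for major urinary proteins, 3.70% for coagulation, 1.85% for complement, 1.87% for ribosomal proteins, 3.49% for amino acid breakdown, 1.26% for nuclear-encoded oxidative phosphorylation subunits, 1.69% for conjugating enzymes and 16.6% for the 10 most abundant genes, and kept 13 of the first 20 genes. Leaving mitochondrially encoded genes out of the sum gave 9.60% for carriers, 8.22% for protease inhibitors, 7.26% for apolipoproteins, 5.81% for major urinary proteins, 3.05% for coagulation, 1.21% for complement, 3.11% for cytochrome P450, 3.85% for ribosomal proteins, 3.43% for amino acid breakdown, 2.41% for nuclear-encoded oxidative phosphorylation subunits, 2.41% for conjugating enzymes, 36.7% for the 7 plasma classes and 19.3% for the 10 most abundant genes. The number of genes with an SD of at least 0.5 (458) was 744 with no filter and 252 with a mean of at least 5 RPKM. The number with an SD of at least 1 (107) was 70 with a pseudocount of 1, 62 with a mean of at least 5 RPKM, 65 by the scaled median absolute deviation, and 63 among genes with under 10% shared stretches, a setting chosen after seeing the data. By the scaled median absolute deviation the median spread was 0.34 for cyclic AMP and fasting genes, 0.52 for glucocorticoid responsive genes and 0.46 for neutrophil markers, and the last was 0.34 with no filter and 1.57 with a mean of at least 5 RPKM. Leaving out 1 library at a time gave median spreads of 0.45 to 0.85, 0.41 to 1.24 and 0.40 to 1.12 for these lists and 0.70 to 1.08 for immediate early genes, with the lowest value without WT 6 in each, and 369 to 512 and 76 to 122 genes past the SD of 0.5 and of 1. No paired analysis was possible because the 6 libraries form 1 group. Depth limits the genes near 1 RPKM, where counting alone gave an SD of 0.14.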
